A study of Mus musculus with 31 samples.

Results

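Organic ion and drug transporters are membrane proteins that carry drugs, toxins, urate, prostaglandins, bile acids, carnitine and conjugated hormones across epithelia. In the kidney they work in series along the proximal tubule. Organic anion and cation transporters of the Slc22a family take solutes up from the blood or reabsorb them from the urine, polypeptides of the Slco family carry larger organic anions, Slc47a antiporters extrude cations into the urine, and pumps of the Abcb, Abcc and Abcg families use ATP to export substrates and conjugates. The members described here are the genes of whole-kidney RNA-seq count tables whose symbols belong to the Slc22a, Slco, Slc47a, Abcb, Abcc or Abcg families and that had at least 10 counts in at least 5 mice. Of 69 genes with such symbols among 23509 in the tables, 57 met the count rule, namely 23 Slc22a, 10 Slco, 2 Slc47a, 9 Abcb, 9 Abcc and 4 Abcg genes. The 12 genes below the rule were Abcb5, Abcc12, Abcg5, Abcg8, Slc22a16, Slc22a20, Slc22a27, Slco1a5, Slco1c1, Slco6b1, Slco6c1 and Slco6d1.

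The kidneys came from 31 male mice harvested at 30 weeks of age. Pcy/CD1 mice, which carry the recessive cystic mutation pcy on the outbred CD1 background, had received vehicle (PBS, 12 mice) or RGLS4326 at 25 mg/kg once a month from 5 weeks of age (14 mice), and 5 untreated CD1 mice served as wild type. RGLS4326 is a short, chemically modified oligonucleotide that binds and inhibits the microRNA miR-17. The labels describe PBS dosing as weekly in one place and monthly in another, and the wild type mice had received no injection, so that the pcy genotype and the injections cannot be told apart between PBS and wild type. In whole kidney, fewer cells of a type and less RNA per cell cannot be told apart either. Levels are given as CPM, that is, counts scaled by library size and TMM factors, and fold changes are on the log2 scale with their standard error (SE) and an adjusted p from edgeR's quasi-likelihood test over 15185 genes. A gene was called when its adjusted p was under 0.05 and its log2 fold change was over 0.5 in size.

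Libraries held 14892524 to 27459962 counts on genes. The library labelled RGLS4326 mouse 9 stood apart from the rest of its group. Gm8615, chosen after its values were seen, lay at 89.7 CPM in it, against 0.0496 to 0.494 CPM in the other 13 treated mice and 84.6 to 98.6 CPM in wild type, and Camk2b, chosen the same way, lay at 0.204 CPM against 7.30 to 10.97 CPM in those mice and 0.0592 to 0.178 CPM in wild type. Both genes thus had wild-type levels in a library labelled as a treated Pcy mouse, and fold changes with RGLS4326 are therefore given with and without it. Of the 35 transporters called lower with PBS than in wild type, mouse 9 was higher than every other treated mouse in 29 and within the range of the wild type mice in 17. Wild type mice 3 and 4 were closer to each other than other pairs, with a chi-square per gene of 2.84 against 17.1 to 24.5 for the other wild type pairs. Sampling noise alone would give a value near 1, which does not tell whether both came from 1 animal, and they were kept as labelled. Without wild type mouse 3, 35 members were lower and 8 higher with PBS than in wild type, beside 17.6% and 24.4% of all tested genes. Without wild type mouse 4 they were 35 and 7, beside 17.4% and 24.3%.

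Because RGLS4326 acts on miR-17, the members' 3′UTRs in GENCODE were searched for matches to the miR-17 seed. The mature miR-17-5p of RefSeq (GRCm38.p6, chr14:115043684-115043706, plus strand) is shown first with its seed in capitals, followed by the 5 matches found, with the match in capitals, since these are the members with a full seed match. Shorter or offset seed sites were not searched.
mmu-miR-17-5p: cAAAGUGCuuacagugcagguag
Slc22a23, 8mer, chr13:34182679-34182685, minus strand, exon 10 of 10: tttacgagaaGCACTTTAtcccct
Slc22a15, 8mer, chr3:101860141-101860147, minus strand, exon 12 of 12: gaaactgctcGCACTTTAactagg
Slc22a15, 7mer-m8, chr3:101859720-101859726, minus strand, exon 12 of 12: gacacgctaaGCACTTTgtaaatg
Abcg4, 8mer, chr9:44273910-44273916, minus strand, exon 15 of 15: cctggagaatGCACTTTAttctgg
Abcg2, 7mer-m8, chr6:58692435-58692441, plus strand, exon 16 of 16: ttaaatatggGCACTTTgattacc
An 8mer is GCACTTTA and a 7mer-m8 is GCACTTT without the final A, and the coordinates (GRCm38) are those of GCACTTT in the 3′UTR. At least 1 match was present in 4 of 56 members with an annotated 3′UTR (7.14%) and in 1933 of 13825 tested genes (13.98%). A match is a sequence feature and was not tested for binding.

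Per kilobase of exon, the transporters of the proximal tubule led the members in every group. In wild type the highest level per length was that of Slc22a12, the urate exchanger of the apical membrane, at 984 CPM per kb, followed by Slc22a6, the basolateral organic anion transporter OAT1, at 537, and Slc22a18 at 395 CPM per kb. Slc47a1, the apical MATE1 antiporter, lay at 304, the organic cation transporter Slc22a2 (OCT2) at 210.3, and Slc22a8 (OAT3) at 174 CPM per kb. The first 3 ranks were the same with PBS and with RGLS4326. Slco1a1 held rank 8 in wild type, rank 12 with PBS and rank 11 with RGLS4326. Together the 57 members made up 12998 ± 289 CPM in wild type (SD, n = 5), 6149 ± 1165 CPM with PBS (SD, n = 12) and 7593 ± 1290 CPM with RGLS4326 (SD, n = 14), or 7323 ± 836 CPM without mouse 9 (SD, n = 13).

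The comparison of PBS with wild type asks how these transporters stood in the cystic kidney. Most were lower: 35 of 57 members were called lower and 8 higher with PBS, against a background of 17.8% of all tested genes called lower and 24.6% called higher. Abcc8, one of the 35, reached 10 counts in all 5 wild type mice but in only 1 PBS and 3 RGLS4326 mice, so it met the count rule through the wild type mice and its call carries no weight of its own. The median log2 fold change of the members was -0.79, beside 0.01 over all tested genes. All 3 genes of organic anion uptake, all 4 Slco1 genes and all 8 genes listed under urate and apical anion exchange, a list that also holds the prostaglandin transporter Slc22a22, were called lower, as were 4 of 5 genes of organic cation transport, whereas the multidrug resistance proteins of the Abcc family divided into 2 higher, 2 lower and 3 not called. The plot of fold changes by role shows these groups beside the treatment comparison.

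**Figure D1:**
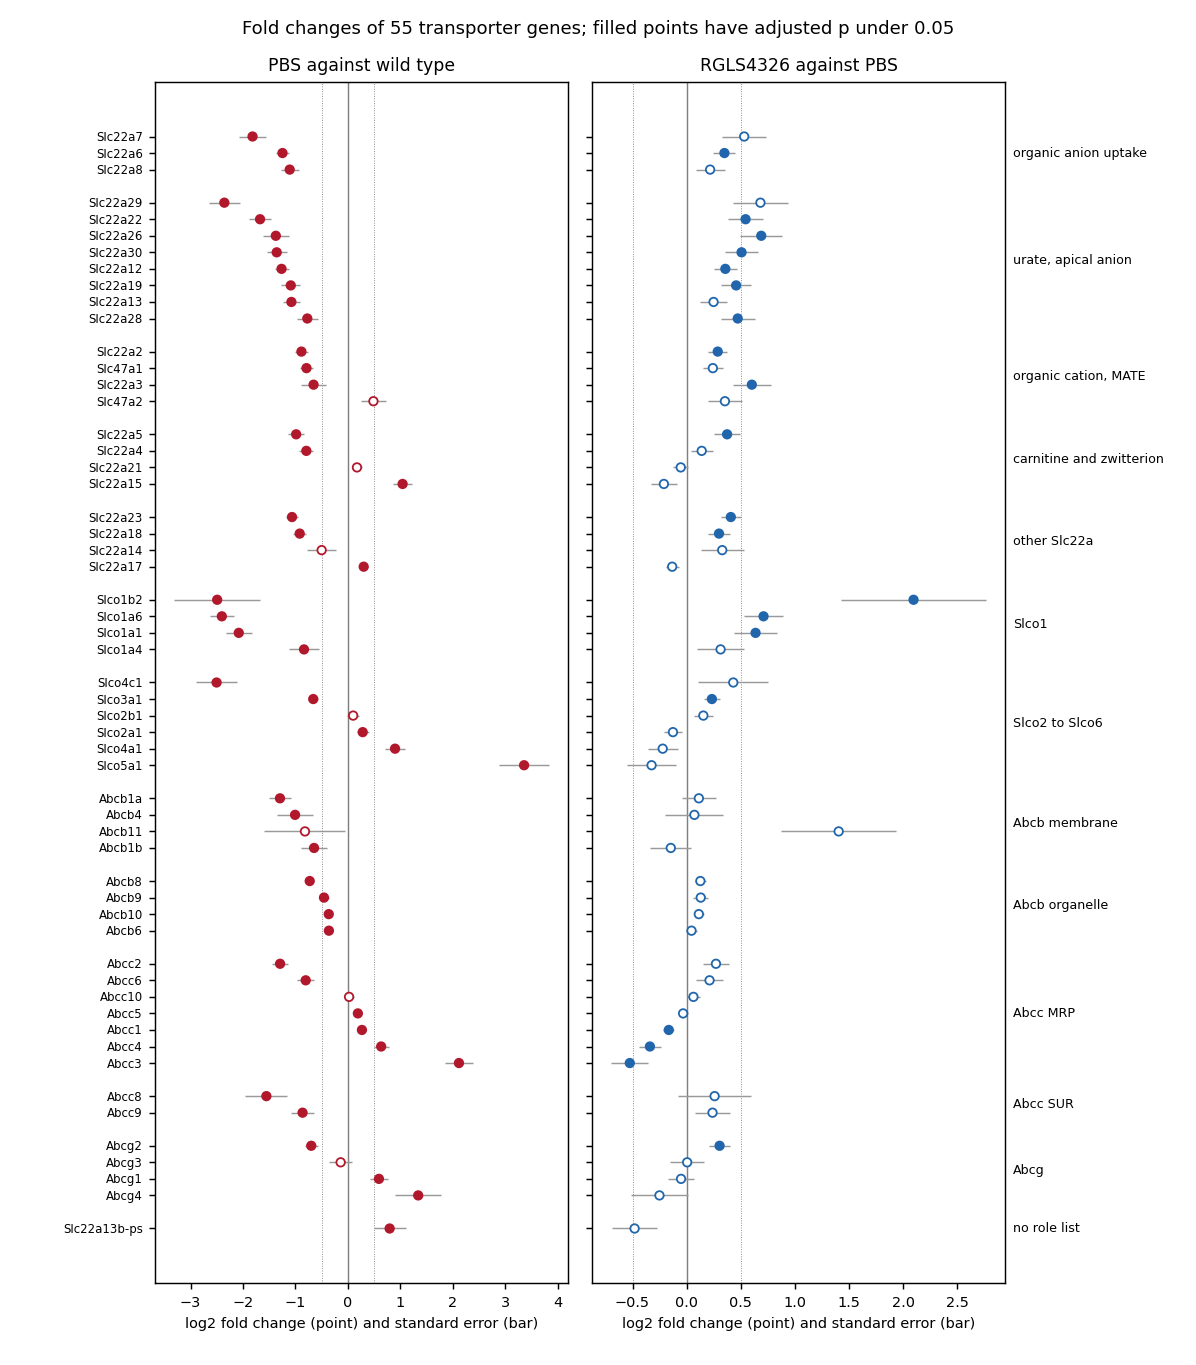
Log2 fold change (points) and its standard error (bars) of 55 of the 57 members, grouped by role, for PBS against wild type on the left and RGLS4326 against PBS on the right. Filled points have an adjusted p under 0.05, dotted lines mark 0.5 in size, and most members lie left of 0 on the left side, with 35 called lower and 8 higher.

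Among the organic anion transporters, Slc22a6 lay at 1894, 1996, 2418, 2379 and 2016 CPM in wild type mice 1 to 5 and at 664, 847 and 1226 CPM (lowest, median and highest) with PBS. The groups did not overlap, and the fall was 2.38-fold (log2 fold change -1.25, SE 0.13, adjusted p = 6.1e-09). Slc22a8, its neighbor on chromosome 19, lay between 641 and 732 CPM in wild type and at 202, 295 and 474 CPM with PBS, again without overlap (log2 fold change -1.11, SE 0.17, adjusted p = 1.7e-06). Slc22a7 (OAT2) had the largest fall of the 3, from 343 ± 94.2 CPM to 97.3 ± 45.7 CPM, a change of -1.82 on the log2 scale (SE 0.26, adjusted p = 3.7e-07). Its wild type values of 473, 359, 253, 249 and 382 CPM all lay above the highest PBS mouse, at 215 CPM.

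The urate exchanger Slc22a12 showed nearly the same fold as Slc22a6. It measured 2346, 2158, 2294, 2254 and 2076 CPM in the wild type mice and 640.2, 868 and 1237 CPM with PBS (log2 fold change -1.27, SE 0.13, adjusted p = 6.7e-09). The nicotinate and urate transporter Slc22a13 fell from 81.9 ± 10.2 to 38.8 ± 8.98 CPM (log2 fold change -1.08, SE 0.16, adjusted p = 8.9e-07). Slc22a22, a prostaglandin-specific transporter on chromosome 15, lay at 247, 230.4, 208, 216 and 234 CPM in wild type and from 31 to 107 CPM with a median of 75.2 CPM with PBS, a 3.19-fold fall (adjusted p = 5.8e-08). Its wild type values were all above the highest PBS mouse. A group of 5 rodent paralogs in a cluster on chromosome 19, made up of Slc22a19, Slc22a26, Slc22a28, Slc22a29 and Slc22a30, had log2 fold changes from -0.77 for Slc22a28 to -2.36 for Slc22a29, all with an adjusted p under 0.05. These 5 genes are similar in sequence and reads that aligned to several places were not counted, so their levels are uncertain.

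Among the cation transporters, Slc22a2 lay at 548, 541, 535, 521 and 467 CPM in wild type and at 201, 274 and 382 CPM with PBS, a fall of 0.89 on the log2 scale (SE 0.12, adjusted p = 1.3e-07). The antiporter Slc47a1, which moves cations and creatinine into the urine, fell from 1027 ± 51.5 to 594 ± 117 CPM (log2 fold change -0.79, SE 0.12, adjusted p = 9.1e-07). Neither gene overlapped between the groups. Slc22a3 (OCT3) was low, at 1.18 ± 0.394 CPM in wild type and 0.749 ± 0.229 CPM with PBS (log2 fold change -0.66, adjusted p = 0.013), and lost its call without wild type mouse 5 (-0.47, adjusted p = 0.091). Of the carnitine transporters, Slc22a5 (OCTN2) fell from 326 ± 22.5 to 164 ± 42.6 CPM (log2 fold change -0.99, adjusted p = 2.2e-06) and Slc22a4 (OCTN1) from 134 ± 12.2 to 77.4 ± 15.9 CPM (log2 fold change -0.79, adjusted p = 4.1e-06). Slc22a21, their neighbor on chromosome 11, measured 6.31 CPM in wild type and 7.11 CPM with PBS (adjusted p = 0.11).

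Of the Slco1 genes, Slco1a1 lay at 927, 1044, 803, 891 and 834 CPM in wild type and at 84.4, 211 and 475 CPM with PBS, a fall of 2.08 on the log2 scale (SE 0.25, adjusted p = 3.4e-08). Slco1a6, in the same cluster on chromosome 6, fell 5.29-fold from 709, 668, 529.6, 581.8 and 701 CPM to a PBS range of 67.6 to 192 CPM with a median of 122 CPM (adjusted p = 2.1e-09). Neither gene overlapped between the groups. Slco1a4 fell less, by 0.84 on the log2 scale (SE 0.28, adjusted p = 0.0090). Slco1b2, a bile acid and bilirubin carrier known from liver, was near the limit of detection, at 0.233 ± 0.25 CPM with PBS, and in wild type mouse 5 reached 3.61 CPM while the other wild type mice had 0.531 to 1.01 CPM. Its fold change of -2.49 (SE 0.82, adjusted p = 0.0074) lost the call without that mouse (-1.67, adjusted p = 0.11). Hepatocyte markers were also lower, with 4 of 5 called and summed levels of 178 to 468 CPM in wild type and 58.8 to 146 CPM with PBS, and their part in the Slco1b2 value was not tested.

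Slco4c1, a basolateral carrier of digoxin and thyroid hormone in the proximal tubule, had the largest fall of the members with a mean of at least 1 CPM, at -2.50 (SE 0.39, adjusted p = 1.4e-06). Its wild type values were 0.826, 12.9, 13.8, 13.02 and 10.3 CPM, and the PBS values 0.798, 1.88 and 2.43 CPM. Wild type mouse 1 was thus at the level of the Pcy mice, and without it the log2 fold change was -2.80 (adjusted p = 9.58e-08). The prostaglandin transporter Slco2a1 was slightly higher with PBS, at 30.7 ± 5.08 against 25.3 ± 4.47 CPM (log2 fold change 0.28, adjusted p = 0.023), and without wild type mouse 2 or 4 its adjusted p was 0.080 and 0.075. Slco2b1 measured 22.05 CPM with PBS and 20.6 CPM in wild type (adjusted p = 0.45). Slco3a1, a prostaglandin and thyroid hormone carrier, fell from 331 ± 35.0 to 209 ± 28.8 CPM (log2 fold change -0.66, adjusted p = 4.0e-07).

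Among the pumps, Abcc2 (MRP2), which exports conjugated anions into the urine, lay at 277, 217, 186, 182 and 177 CPM in wild type and at 59.7, 88.0 and 108 CPM with PBS (log2 fold change -1.29, SE 0.15, adjusted p = 3.1e-08). Abcg2 (BCRP), a urate and drug exporter, lay at 593, 516, 547, 572 and 577 CPM against 227, 349.6 and 442 CPM (log2 fold change -0.70, SE 0.13, adjusted p = 1.4e-05). Neither pump overlapped between wild type and PBS. The P-glycoprotein genes Abcb1a and Abcb1b and the phospholipid exporter Abcb4 lie side by side on chromosome 5. Abcb1a measured 16.3, 11.6, 7.51, 7.39 and 6.80 CPM in wild type and 2.69, 4.17 and 5.45 CPM with PBS (log2 fold change -1.30, SE 0.20, adjusted p = 1.5e-06). Abcb1b measured 36.2, 7.48, 11.8, 10.54 and 8.25 CPM in wild type and 6.01, 9.35 and 15.9 CPM with PBS. Its fold change of -0.65 (adjusted p = 0.019) came to -0.0012 (adjusted p = 0.9959) without wild type mouse 1, which was the highest of the wild type mice for all 3 genes. The call of Abcb4 (-1.01, adjusted p = 0.0084) was also lost without that mouse (-0.79, adjusted p = 0.056). Abcb6, Abcb8, Abcb9 and Abcb10, which act in organelles, all had adjusted p under 0.05 in the lower direction. The fall of Abcb8, from 114.8 ± 12.5 to 69.3 ± 5.62 CPM, passed the threshold on size (log2 fold change -0.73, SE 0.07, adjusted p = 2.4e-09). Abcb6, a porphyrin transporter, moved from 63.5 ± 3.77 to 49.4 ± 5.12 CPM.

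The 8 members called higher were Abcc3, Slc22a15, Slco4a1, Abcc4, Abcg1, Slco5a1, Abcg4 and the pseudogene Slc22a13b-ps. Abcc3 (MRP3), a basolateral exporter of glucuronides, had values of 3.95, 6.95, 4.32, 5.27 and 6.56 CPM in wild type and 12.2, 24.5 and 35.2 CPM with PBS. The rise was 4.34-fold (log2 fold change 2.12, SE 0.27, adjusted p = 1.0e-07), without overlap of the groups. Abcc4 (MRP4), an exporter of cyclic nucleotides and prostaglandins, lay at 23.9, 47.8, 33.0, 33.7 and 46.4 CPM in wild type and at 38.0, 60.5 and 75.5 CPM with PBS, and here the groups overlapped (log2 fold change 0.63, SE 0.15, adjusted p = 2.8e-04). The carnitine-related Slc22a15 rose from 2.83 ± 1.03 to 5.82 ± 0.869 CPM (log2 fold change 1.04, SE 0.18, adjusted p = 8.2e-06), Slco4a1, a thyroid hormone carrier, from 29.4 ± 15.5 to 54.8 ± 13.6 CPM (log2 fold change 0.90, SE 0.20, adjusted p = 1.9e-04), and the cholesterol exporter Abcg1 from 8.67 ± 2.05 to 13.05 ± 2.6 CPM (log2 fold change 0.59, SE 0.17, adjusted p = 0.0020). Slco5a1 lay at 0.0592 to 0.121 CPM in wild type and 0.510 to 1.503 CPM with PBS. Slco5a1 and Abcg4 reached 10 counts in 0 of 5 wild type mice and Slc22a13b-ps in 1, so these 3 genes met the count rule through the Pcy mice and their calls carry no weight of their own. Abcc1 (MRP1) and Abcc5 (MRP5) had small positive fold changes of 0.27 and 0.19 (adjusted p = 0.0014 and 0.0043), as did Slc22a17, a receptor for the Lcn2 protein, with 0.30 (adjusted p = 0.0015).

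The plot of CPM in each mouse shows 12 of these genes.

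**Figure D2:**
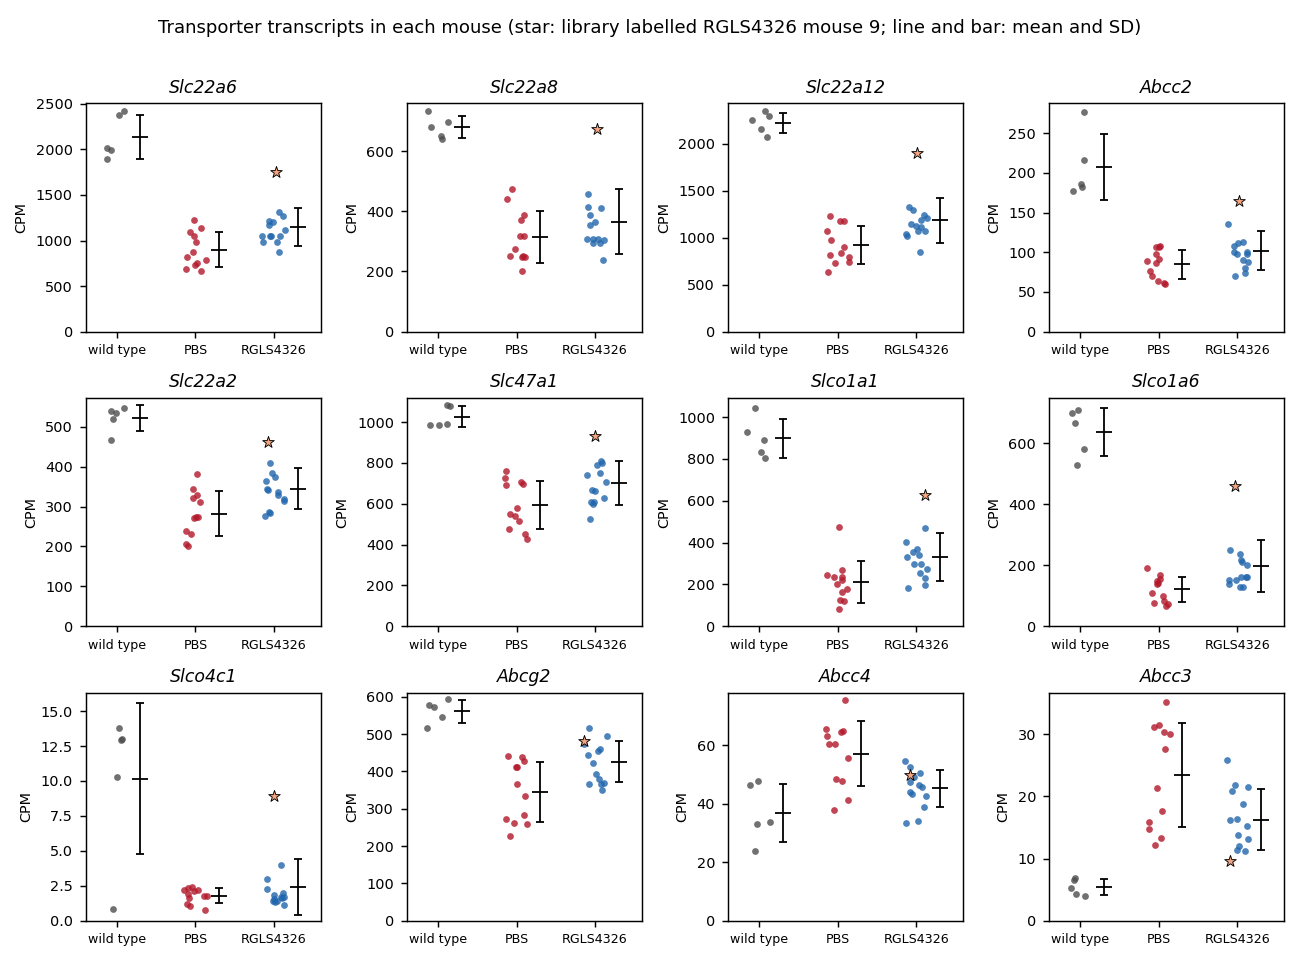
CPM of 12 transporters in each mouse (points) of the wild type (5), PBS (12) and RGLS4326 (14) groups, with the mean and SD beside the points. The star, the library labelled RGLS4326 mouse 9, lies above every other treated mouse for Slc22a6 (1750 CPM) and Slco1a6 (461 CPM), and wild type mouse 1 lies at 0.826 CPM for Slco4c1.

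Markers of the proximal tubule moved with the transporters. All 12 markers of this segment had lower levels with PBS, with log2 fold changes from -0.28 (Aqp1) to -1.74 (Miox), 11 of them called, and their summed level ranged from 66138 to 81689 CPM in wild type, from 23904 to 49385 CPM with PBS and from 35187 to 63656 CPM with RGLS4326, where the highest without mouse 9 was 59646 CPM. Summed macrophage markers ranged from 155 to 166 CPM in wild type and from 342 to 603 CPM with PBS. The ranges were 109 to 155 and 367 to 787 CPM for fibroblast markers, 333 to 861 and 2850 to 7159 CPM for injury markers, and 394 to 771 and 1090 to 2497 CPM for collecting duct markers. The part of these shifts in the transporter values was not tested. As a description, each member's log2(CPM + 1) was set against the mean log2(CPM + 1) of the 12 proximal markers. That mean itself fell by 1.202 between wild type and PBS. Relative to the markers, Slc22a6 differed by -0.07, Slc22a12 by -0.09, Slc22a8 by 0.05 and Abcc2 by -0.09 between PBS and wild type. The mice of both groups overlapped for each. Slco1a6 lay 1.26 lower relative to the markers and Slc22a22 0.54 lower, both without overlap. Abcc3 lay 3.07 and Abcc4 1.84 higher, and Slc47a1 (0.39) and Abcg2 (0.47) were higher relative to the markers although their CPM fell. The added 1 flattens members of few CPM, so this measure understates their falls. Slco4c1 thus differed by only -0.52 and Slco1b2 by 0.40, although their log2 fold changes were -2.50 and -2.49.

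**Figure D3:**
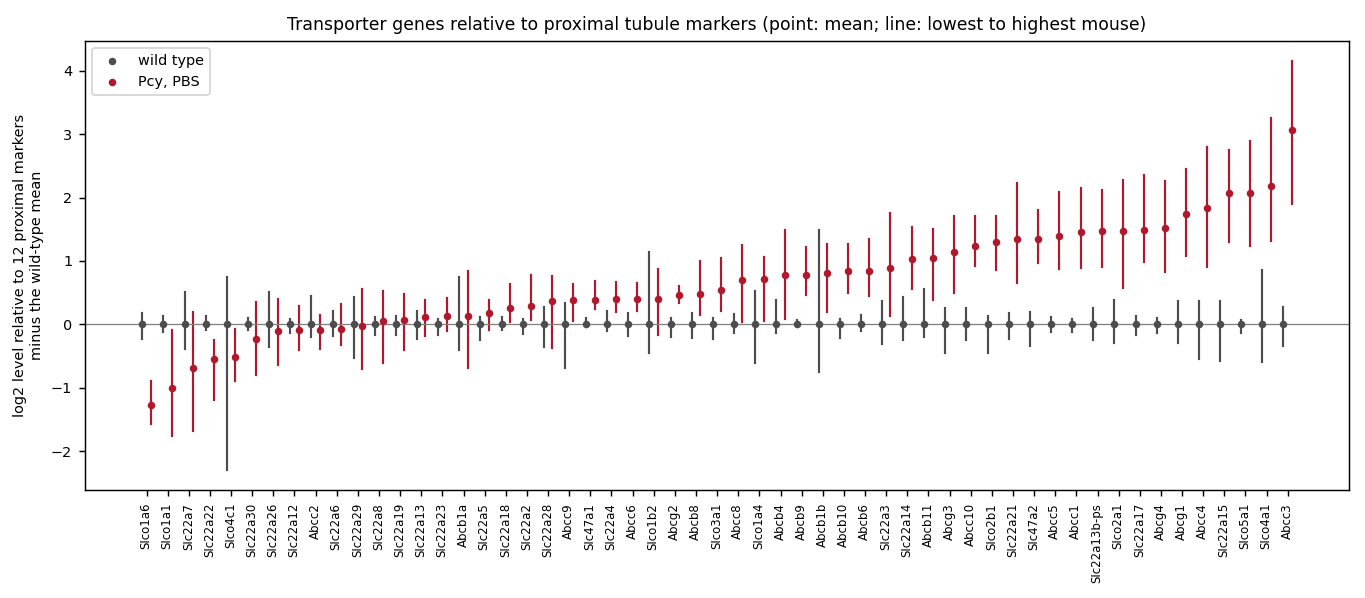
Level of 55 members as log2(CPM + 1), relative to the mean of 12 proximal tubule markers, as the difference from the wild type mean, for wild type and PBS mice (points are means, lines run from the lowest to the highest mouse). Slco1a6 is the farthest below 0 on this measure, at -1.26, Slc22a6 and Slc22a12 lie close to 0, and Abcc3 is the farthest above, at 3.07. The added 1 flattens members of few CPM, so their order does not follow their fold changes.

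Other transport genes and regulators, taken from lists and not for their change, were measured the same way. Of 17 tested partners among other solute carriers, 11 were called lower and 1 higher with PBS, where 17.8% and 24.6% of all tested genes were. Slc13a3, the basolateral dicarboxylate carrier that supplies the counter-ion for organic anion uptake, fell from 1287 to 355 CPM (log2 fold change -1.86, adjusted p = 2.1e-08), and the urate transporter Slc2a9 from 26.3 to 12.7 CPM (log2 fold change -1.05, adjusted p = 1.3e-08). Of 14 scaffolds and regulators, 9 were called lower and 1, the xenobiotic receptor Nr1i2, higher (log2 fold change 0.77, adjusted p = 6.9e-06). Those lower included the scaffold Pdzk1 (-1.08, adjusted p = 1.4e-07) and the transcription factor Hnf4a (-0.84, adjusted p = 5.0e-07), a known activator of proximal tubule transporter genes.

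The comparison of RGLS4326 with PBS asks what the treatment changed. With RGLS4326, 7 members were called higher and 1 lower, against a background of 0.935% of all tested genes called higher and 1.22% called lower. With the adjusted p alone, 18 members were higher and 3 lower, where 9.15% and 6.66% of all tested genes were. The median log2 fold change of the members was 0.24, beside -0.0043 over all tested genes. Without the library labelled RGLS4326 mouse 9, 3 members were called higher (Slc22a3, Slc22a26 and Slco1a6) and 0 lower, where 0.349% and 0.607% of all tested genes were. The adjusted p alone then left 8 higher and 2 lower, beside 4.66% and 3.48% of all tested genes, and the median was 0.15. In the fit of PBS and RGLS4326 mice alone, 5 members were called higher and 0 lower, beside 0.511% and 0.919% of all tested genes. Calls near the thresholds also depended on other single mice. The number called higher was 3 without PBS mouse 2, 3 without PBS mouse 3, 11 without PBS mouse 4, 2 without PBS mouse 5, 2 without PBS mouse 9 and 1 without PBS mouse 10, and it was 4, 4, 3 and 4 without RGLS4326 mouse 6, 8, 10 and 13. Calls over all genes moved as well, with 1.57% of tested genes called higher without PBS mouse 4 and 0.277% to 0.553% without each of the other mice named here.

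The 7 members called higher were Slco1b2, Slco1a6, Slc22a26, Slco1a1, Slc22a3, Slc22a22 and Slc22a30. Slco1a6 lay at 67.6, 122 and 192 CPM with PBS and at 129.8, 162 and 461 CPM with RGLS4326, a 1.64-fold rise (log2 fold change 0.71, SE 0.18, adjusted p = 0.018). The highest treated value belonged to mouse 9, the other 13 treated mice reached 249 CPM, and the fold change without mouse 9 was 0.55 (adjusted p = 0.029). Slco1a1 lay at 84.4, 211 and 475 CPM with PBS and 181, 315 and 628 CPM with RGLS4326 (log2 fold change 0.64, SE 0.20, adjusted p = 0.034), and 0.53 without mouse 9 (adjusted p = 0.063). Slc22a26 lay at 3.43, 7.86 and 14.7 CPM against 7.55, 11.97 and 22.5 CPM (log2 fold change 0.69, SE 0.19, adjusted p = 0.025), and 0.66 without mouse 9 (adjusted p = 0.039). For these 3 genes the PBS and RGLS4326 groups overlapped.

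Slc22a22 rose from 71.1 ± 24.4 to 104 ± 30.6 CPM (log2 fold change 0.54, adjusted p = 0.031) and Slc22a30 from 108 ± 39.6 to 154 ± 35.8 CPM (log2 fold change 0.51, adjusted p = 0.030). Both fold changes were 0.46 without mouse 9 (adjusted p = 0.057 and 0.052). Slc22a3 rose from 0.749 ± 0.229 to 1.15 ± 0.349 CPM (log2 fold change 0.60, adjusted p = 0.027), and 0.53 without mouse 9 (adjusted p = 0.048). Slco1b2 had a log2 fold change of 2.10 (SE 0.67, adjusted p = 0.037) that rested on mouse 9. That mouse had 8.08 CPM, the other treated mice 0.0801 to 1.56 CPM and the PBS mice 0.0368 to 0.947 CPM, and without it the fold change was 0.99 (adjusted p = 0.17). Hepatocyte transcripts were also high in the same library, with Alb at 329.6 CPM beside a mean of 61.6 CPM in wild type and 20.4 CPM with PBS. Their part in the Slco1b2 value was not tested.

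Among the members that passed the adjusted p with a smaller fold, Slc22a23, an orphan member with an 8mer seed match, had the smallest p. It lay at 48.3, 58.8 and 84.7 CPM with PBS and at 64.8, 77.1 and 121 CPM with RGLS4326 (log2 fold change 0.41, SE 0.09, adjusted p = 0.011), and 0.35 without mouse 9 (adjusted p = 0.016). Slc22a6 rose 1.27-fold, with 872, 1086 and 1750 CPM in treated mice (log2 fold change 0.35, SE 0.10, adjusted p = 0.027), and Slc22a12 1.28-fold, with 850.4, 1140 and 1906 CPM (log2 fold change 0.36, SE 0.10, adjusted p = 0.027). Without mouse 9 both fold changes were 0.29 (adjusted p = 0.046 and 0.045). Slc22a23 and Slco1a6 kept an adjusted p under 0.05 in each of the 26 fits that left out 1 PBS or RGLS4326 mouse, and Slc22a6 and Slc22a12 in 22 of them. Slc22a2 (0.29), Slc22a5 (0.37), Slc22a18 (0.30), Slc22a19 (0.46), Slco3a1 (0.23) and Abcg2 (0.30) passed with all 14 treated mice (adjusted p = 0.031 to 0.042) but had an adjusted p of 0.055 to 0.074 without mouse 9. Their fold changes without it were, in the same order, 0.25, 0.33, 0.26, 0.41, 0.20 and 0.29. Slc22a28 passed in both (0.47, adjusted p = 0.041, and 0.49, adjusted p = 0.0497).

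Other core transporters did not pass the test. Slc22a8 lay at 238, 331 and 675 CPM with RGLS4326, a log2 fold change of 0.22 (SE 0.13, adjusted p = 0.24), where the highest value was again mouse 9 and the fold change without it was 0.12 (adjusted p = 0.48). Slc22a7 had a fold change of 0.53 (SE 0.20, adjusted p = 0.065), Slc47a1 of 0.24 (SE 0.09, adjusted p = 0.061), Abcc2 of 0.27 (adjusted p = 0.10) and Slc22a4 of 0.14 (adjusted p = 0.31). Without mouse 9 these values were 0.47 for Slc22a7 (adjusted p = 0.11), 0.21 for Slc47a1 (adjusted p = 0.11), 0.20 for Abcc2 (adjusted p = 0.20) and 0.08 for Slc22a4 (adjusted p = 0.56). For Slco4c1 the fold change was 0.43 (SE 0.32, adjusted p = 0.33) with mouse 9 at 8.95 CPM and 0.10 (adjusted p = 0.83) without it, the other treated mice having 1.11 to 3.999 CPM. Abcb1a, Abcb1b and Abcb4 had adjusted p of 0.62, 0.59 and 0.86, and 0.99, 0.54 and 0.56 without mouse 9.

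The 3 members lower with RGLS4326 by the adjusted p were all Abcc exporters. Abcc3 lay at 12.2, 24.5 and 35.2 CPM with PBS and at 9.56, 15.7 and 25.8 CPM with RGLS4326 (log2 fold change -0.53, SE 0.17, adjusted p = 0.040), and -0.48 without mouse 9 (adjusted p = 0.065). No member was called lower without PBS mouse 2, 3, 5, 6, 9 or 10 or RGLS4326 mouse 3, 6, 8, 9, 10 or 13, and 2 were without RGLS4326 mouse 4. Of all tested genes 0.237% to 1.23% were called lower in the former fits and 1.35% in the latter. Abcc4 lay at 38.0, 60.5 and 75.5 CPM against 33.6, 46.3 and 54.6 CPM (log2 fold change -0.34, SE 0.10, adjusted p = 0.031), and -0.35 without mouse 9 (adjusted p = 0.041). Abcc1 fell from 40.4 ± 3.7 to 36.1 ± 3.6 CPM (log2 fold change -0.17, SE 0.05, adjusted p = 0.035), and by 0.18 without mouse 9 (adjusted p = 0.034). The groups overlapped for each of the 3. Of the 4 members with a miR-17 seed match, Slc22a23 and Abcg2 had the positive fold changes given above, Slc22a15 had -0.21 (adjusted p = 0.21) and Abcg4 -0.25 (adjusted p = 0.50). The last 2 came to -0.16 and -0.29 without mouse 9 (adjusted p = 0.32 and 0.47).

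**Figure D4:**
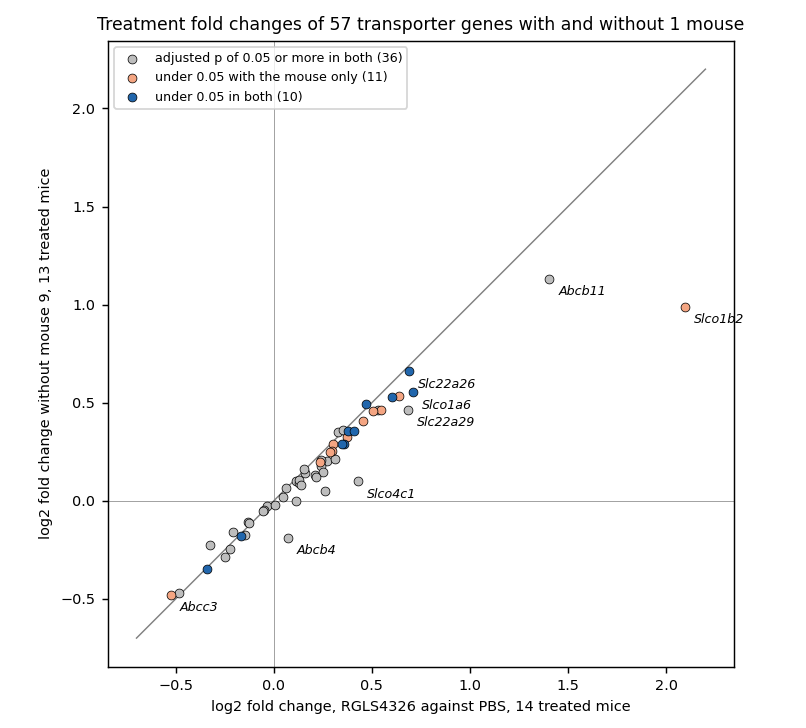
Log2 fold change of each member between RGLS4326 and PBS with all 14 treated mice (horizontal) and with the 13 left when mouse 9 is left out (vertical), with the line of equality. Slco1b2 moves from 2.10 to 0.99 and Slco4c1 from 0.43 to 0.10, and 10 members keep an adjusted p under 0.05 in both fits, 11 in the first fit alone.

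Each library carries a running number and a second number. From where the second number stopped rising within a group, 3 series were inferred, which may not be batches. Each series held 4 PBS and 4 or 5 RGLS4326 mice, and the fold changes were recomputed within each. Within a series edgeR called 0 members and 0 of all tested genes, with 4 or 5 mice on each side, so the 0 is no result about the transporters. At an unadjusted p under 0.05 there were 3 of 54 tested members in series 1, 12 of 52 in series 2 and 22 of 52 in series 3, where 1.65%, 16.3% and 21% of all tested genes were. The 17 tested of the 18 members higher by the adjusted p had a median fold change of 0.13 in series 1, 0.49 in series 2, which held mouse 9, and 0.48 in series 3. These members were chosen on the same mice, so their direction within a series is a description only. Mean Slc22a6 was 978 CPM with PBS and 1019 CPM with RGLS4326 in series 1, 901 and 1278 CPM in series 2, and 825 and 1120 CPM in series 3.

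Markers of the proximal tubule moved in the same direction as the transporters here too, and their mean log2 level was 0.39 higher with RGLS4326 than with PBS, or 0.34 without mouse 9. By the adjusted p, 4 of 12 were higher with all treated mice and 0 without mouse 9. Of 6 collecting duct markers, 4 were lower in both fits. Over all tested genes, 9.15% were higher and 6.66% lower with all treated mice, and 4.66% and 3.48% without mouse 9. The part of these markers in the transporter values was not tested. Relative to the proximal markers, Slc22a6 differed by -0.04 and Slc22a12 by -0.03 between RGLS4326 and PBS, Slco1a6 by 0.30, Slco1a1 by 0.29 and Abcc3 by -0.86. Without mouse 9 these differences were -0.03, -0.03, 0.25, 0.27 and -0.76. Of the 14 scaffolds and regulators, 5 were higher and 1 lower by the adjusted p, and 2 higher and 0 lower without mouse 9, beside the same shares of all tested genes. The bile acid receptor Nr1h4 (0.63, adjusted p = 0.010, and 0.57, adjusted p = 0.016, without mouse 9) and Hnf4a (0.35, adjusted p = 0.021, and 0.30, adjusted p = 0.035) rose in both, while Nr1i2 was lower (-0.30, adjusted p = 0.032, and -0.28, adjusted p = 0.054).

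Treated mice were also set against wild type. With RGLS4326, 28 members were called lower and 7 higher, against a background of 11.3% of all tested genes called lower and 20.3% called higher, with a median log2 fold change of -0.52. Without mouse 9, 30 were lower and 7 higher, beside 12.5% and 21.3% of all tested genes. This comparison shares its treated mice with the one above, so the values are given side by side only. Slc22a6 stood at -0.90 against wild type (adjusted p = 1.3e-06), Slco1a6 at -1.69 (adjusted p = 5.6e-07), Slco4c1 at -2.07 (adjusted p = 2.5e-05), Slc22a7 at -1.29 (adjusted p = 7.1e-05) and Abcb1a at -1.18 (adjusted p = 9.1e-06). Abcc3 stood at 1.59 (adjusted p = 1.1e-05) and Slc22a15 at 0.83 (adjusted p = 2.0e-04), while Abcc4 at 0.29 had an adjusted p of 0.067. Slc47a2 (MATE2), also called higher, lay at 0.605 ± 0.126 CPM and in wild type at 0.335 ± 0.14 CPM. In wild type 0 of 5 mice reached 10 counts, so that Slc47a2 met the count rule through the Pcy mice. Slco5a1 and Abcg4, also among those called higher, met the rule the same way. Abcc8, among those called lower, met it through the wild type mice. The calls of these genes carry no weight of their own. Slc22a3 was at -0.05 (adjusted p = 0.85). Without mouse 9 the values were -0.96 for Slc22a6, -1.85 for Slco1a6, -2.40 for Slco4c1, -1.35 for Slc22a7, -1.30 for Abcb1a, 1.64 for Abcc3, 0.88 for Slc22a15, 0.29 for Abcc4 and -0.13 for Slc22a3, with Abcc4 (adjusted p = 0.078) and Slc22a3 (adjusted p = 0.62) again not past the test.

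Finally, transporters were compared across the mice of each Pcy group with Lcn2, a transcript of injured tubules that was at 205 to 1205 CPM with PBS and 126 to 607 CPM in 13 treated mice. Mouse 9, at 2.76 CPM, was left out of the treated group as it stands apart on this axis. Pearson's r and Spearman's rho on log2(CPM + 1) were given permutation p-values (two-sided, 100000 resamples) adjusted over the 16 relations computed. With PBS (n = 12), Slc22a2 had r = -0.91 and rho = -0.94 (adjusted permutation p = 8.0e-04 and 3.2e-04), Slc47a1 had r = -0.91 and rho = -0.92 (adjusted permutation p = 8.0e-04 and 6.4e-04) and Slc22a6 had r = -0.89 and rho = -0.93 (adjusted permutation p = 9.6e-04 and 3.2e-04). Mice with more Lcn2 thus had less of these uptake and efflux transcripts. Abcc4 ran the other way, with r = 0.83 and rho = 0.84 (adjusted permutation p = 0.0027 and 0.0044). Leaving out the 2 mice farthest from the Lcn2 median gave r of -0.83 for Slc22a2, -0.84 for Slc47a1, -0.83 for Slc22a6 and 0.78 for Abcc4. Slco4c1 had r = -0.74 and rho = -0.60 (adjusted permutation p = 0.011 and 0.062), Slc22a8 r = -0.43 (permutation, 0.20) and Abcb1a r = 0.09 (permutation, 0.77).

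In the 13 treated mice, Slc47a1 had r = -0.85 and rho = -0.79 (adjusted permutation p = 0.0016 and 0.0063), Slc22a6 r = -0.81 and rho = -0.67 (0.0027 and 0.029, permutation) and Slc22a2 r = -0.73 and rho = -0.67 (0.011 and 0.029, permutation). Abcc4 had r = 0.59 (adjusted permutation p = 0.054), Slc22a8 r = -0.57 (permutation, 0.064), Slco4c1 r = -0.40 (permutation, 0.20) and Abcb1a r = -0.24 (permutation, 0.46). Without the 2 of these mice farthest from the Lcn2 median, r was -0.85 for Slc47a1, -0.73 for Slc22a6 and -0.62 for Slc22a2. With mouse 9 included, r was -0.85 for Slco4c1, -0.78 for Abcb1a, -0.82 for Slc22a8 and 0.05 for Abcc4. The values of Slco4c1, Abcb1a and Slc22a8 were thus weaker without that library, and that of Abcc4 was stronger. Each inferred series held 4 or 5 mice of a group, too few for a correlation within it. All points share the CPM scaling, and the part of proximal tubule content in these relations was not tested.

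**Figure D5:**
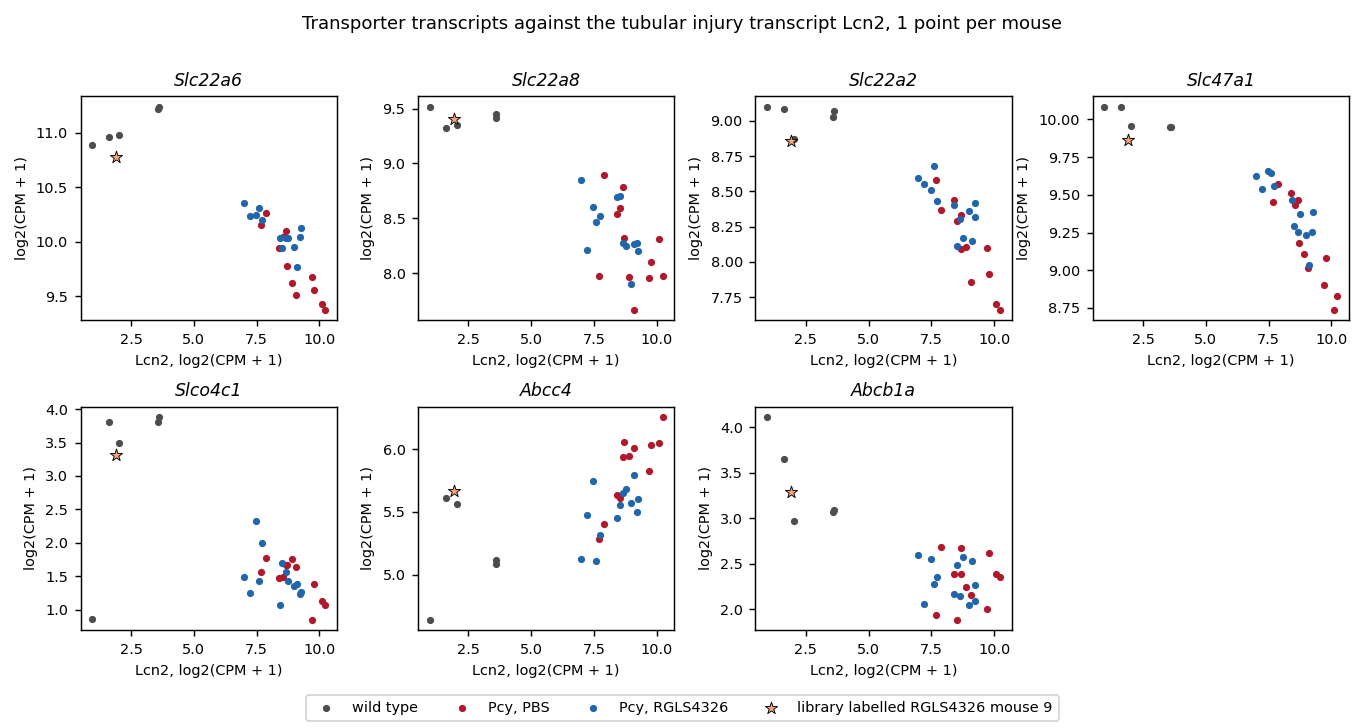
Each of 7 transporters (vertical) against Lcn2 (horizontal), both as log2(CPM + 1), with 1 point per mouse colored by group and a star for the library labelled RGLS4326 mouse 9. Within the PBS mice Slc22a2, Slc47a1 and Slc22a6 fall as Lcn2 rises (r from -0.91 to -0.89) and Abcc4 rises (r = 0.83), and the star lies at 2.76 CPM of Lcn2, left of the other treated mice.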

How the data were processed

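RNA from 31 mouse kidneys (RNeasy, stranded TruSeq mRNA libraries) was sequenced by the authors, who trimmed reads, aligned them with STAR to GRCm38 and deposited raw counts per gene from HTSeq 0.6.1. Per the labels, FastQC 0.11.2, SAMtools 1.1 and Picard 1.119 were also used; the annotation and the strand setting are not given in the sources used here. HTSeq's summary lines, 26.9 to 31.1% of each file, were left out. Reads aligned to several places were not counted, which lowers the levels of close paralogs.

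Counts were tested with edgeR 4.0.16 (R 4.3.3): filterByExpr, TMM, glmQLFit and glmQLFTest on all 31 mice in 1 model, with Benjamini-Hochberg adjustment over 15185 genes. The SE is the log2 fold change over the root of F. The procedure was tested on simulated data. The members, gene lists and naming rule were chosen with earlier results of these data known. The rule names 25 core transporters, the 5 largest called rises and falls of each comparison (mean of at least 1 CPM), the 5 smallest treatment p-values, members called in the disease comparison as well as the treatment comparison, and the 3 most abundant not called between PBS and wild type. Other members are named where a count or group is described. Nothing states that mice came from separate litters or cages, so p-values measure the spread between these mice. Alternatives were RLE factors, DESeq2, other filters, other sets of mice, a series covariate and a replicate block. Lengths are unions of GENCODE vM21 exons. Some items are not reported here.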

Additional observations from a re-analysis of the deposited data

Results flagged for a closer look

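All 57 members were examined in the 5 wild type mice for 1 mouse far from the other 4 (Dixon's test, critical value 0.71), and 6 members had one; chance alone sets apart about 1 in 20 such groups. Slco4c1 was low in wild type mouse 1, at 0.826 CPM against 10.3 to 13.8 CPM in the others. The same mouse was high for Abcb1b, at 36.2 CPM against 7.48 to 11.8 CPM, and for Abcb4, at 1.65 CPM against 0.843 to 1.01 CPM, which lie side by side on chromosome 5. Wild type mouse 5 was high for Abcb11, the bile salt export pump, at 0.903 CPM against 0.118 to 0.242 CPM, and for Slco1b2, at 3.61 CPM against 0.531 to 1.01 CPM. Both are transporters known from liver. Wild type mouse 2 was low for Slco2b1, at 15.7 CPM against 21.0 to 22.4 CPM. The cause of these values was not tested.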

How the results depend on the processing

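The direction of the transporter changes between PBS and wild type was the most stable result. Here leaving out 1 mouse gave 7 to 8 members higher (24.1% to 25% of all tested genes) and 33 to 35 lower (17% to 18.6%). The median was -0.82 to -0.74, and the 37 named members kept their direction in all alternatives run. Treatment calls were less stable. Leaving out 1 mouse gave 1 to 11 members higher (0.277% to 1.57% of all tested genes) and 0 to 2 lower (0.237% to 2.41%). The median was 0.15 to 0.28. RGLS4326 against wild type gave 5 to 7 members higher (19.5% to 21.3% of all tested genes) and 25 to 30 lower (10.6% to 12.5%). Its median was -0.62 to -0.46. With no threshold on size the treatment counts were 18 higher and 3 lower, and together with leaving out mouse 9, chosen after seeing the data, 8 and 2. With only PBS and RGLS4326 mice 0 members were lower. Within each of the 3 series 0 were higher and 0 lower, as were 0 of all tested genes, while the median was 0.049 within series 1, 0.31 within series 2 and 0.30 within series 3, against 0.24 with all mice.

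Nothing states whether same-numbered mice share more than a number. Their deviations correlated at -0.085 on average over 12 PBS and RGLS4326 pairs (range -0.47 to 0.51). The mean was 0.087 over 5 PBS and wild type pairs. Values this spread over few pairs cannot decide it. With the replicate block over shared numbers, 0 members were higher and 0 lower with RGLS4326 than with PBS, beside 0% and 0.0205% of all tested genes; without the block on the same mice (chosen after seeing the data) 0 and 0 as well, beside 0.205% and 0.287%, and 5 members were higher with PBS than in wild type, beside 23.2%. The median against wild type with RGLS4326 was -0.67 under the block.

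Of the 37 named members, those whose fold change changed sign were not called in that comparison. Over all 57 members, 43 fold changes between RGLS4326 and PBS were positive with all mice and 40 without mouse 9. For the named members these changes were, between RGLS4326 and PBS, within series 1, Abcb6 (-0.021), Abcc5 (0.035), Abcg1 (0.13), Slc22a13 (-0.075) and Slc22a4 (-0.085), within series 3, Abcb1a (-0.23), Abcg1 (0.000358) and Slco4c1 (-0.20), and under the replicate block Abcb4 (-0.022). Leaving out 1 mouse gave Abcb1a -0.0018 to 0.16 and Abcb4 -0.19 to 0.15, and, against wild type, Slc22a3 -0.19 to 0.13 and Slco1b2 -1.50 to 0.42. The cause of these changes was not tested. Depth limits the members under 1 CPM.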
